A study of Mus musculus with 2 samples.

Results

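The genes described are 10 genes of cytosolic nucleic acid sensing, out of 31253 genes in the deposited tables, chosen by symbol: *Ddx58*, *Ifih1*, *Dhx58*, *Zbp1*, *Mavs*, *Tbk1*, *Ifi203*, *Ifi204*, *Ifi205* and *Mndal*. Their unique molecular identifiers (UMIs, tags that count captured mRNA molecules) were counted in every cell in which mitochondrial genes held under 10% of the UMIs. The cells are CD45+ immune cells sorted from subcutaneous tumors of B16-F10, a melanoma line of C57BL/6 origin, and profiled by 3′ single-cell RNA-seq on the BD Rhapsody system on day 10 after injection. One library was made from the pooled tumors of 3 Irg1+/+ mice and the other from the pooled tumors of 3 Irg1-/- mice. *Irg1* (*Acod1*) encodes the enzyme that makes itaconate from cis-aconitate in activated myeloid cells. The Irg1-/- line is a whole-body deletion backcrossed to C57BL/6J, the mice were young adult females, and no treatment is stated for either pool. Each genotype therefore has 1 library and no replicate, so no test between the genotypes exists, and genotype cannot be told apart from anything else that differed between the pools.

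Cells carry 2 arms of defense against foreign or misplaced nucleic acid in the cytosol. In the RNA arm, RIG-I (encoded by *Ddx58*) and MDA5 (*Ifih1*) bind double-stranded or 5′-triphosphate RNA and engage MAVS on mitochondria, which activates the kinase TBK1 and, through IRF3 and IRF7, type I interferon transcription. LGP2 (*Dhx58*) lacks the signaling domains and tunes the other receptors. ZBP1 binds left-handed nucleic acid and can start necroptosis through RIPK3 and MLKL. The HIN-200 proteins (*Ifi203*, *Ifi204*, *Ifi205*, *Mndal*) have DNA-binding HIN domains and, in most members, a pyrin domain. Several of these genes are themselves switched on by interferon in macrophages, whereas *Mavs* and *Tbk1* are known as broadly expressed.

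In the GENCODE M21 annotation of GRCm38, the 4 HIN-200 genes lie in one cluster on the minus strand of chromosome 1: *Ifi204* at chr1:173747293-173766943, *Mndal* at chr1:173849126-173942491, *Ifi203* at chr1:173920407-173942672 and *Ifi205* at chr1:174011998-174031810. The span of *Mndal* overlaps *Ifi203* and *Ifi211* on the same strand, and UMIs from shared sequence may have been split between them. Of the distinct 100-base stretches of its transcripts, 628 of 4175 of *Ifi205*, 10.7% of those of *Ifi204*, 6.38% of those of *Mndal* and 2.84% of those of *Ifi203* also occur in transcripts of another gene, mostly *Ifi211* for the first pair. How many UMIs of these genes could belong to another was not tested, and their values are uncertain. The other genes lie apart from each other: *Ddx58* at chr4:40203773-40239828, *Ifih1* at chr2:62595798-62646255, *Zbp1* at chr2:173206612-173218923, *Tbk1* at chr10:121546455-121586787 and *Dhx58* at chr11:100694884-100704271, all on the minus strand, and *Mavs* at chr2:131234063-131248025 on the plus strand. *Dhx58* overlaps an antisense gene, *Dhx58os*, and whether the counting used strand is not given in the sources used here.

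The promoters are shown because the sensors that followed interferon-stimulated genes from cell to cell, described with the values by range, are set beside the letters of the interferon-stimulated response element. RefSeq windows (GRCm38.p6, 250 bases before to 50 bases after a gene's start) exist for 7 of the 10 genes in the table used. *Dhx58*, *Zbp1* and *Ifi204* have none. The response element core GAAANNGAA, read on both strands, occurs in a window of 5 of the 7, namely *Ddx58*, *Ifih1*, *Ifi203*, *Ifi205* and *Mndal*, and in neither *Mavs* nor *Tbk1*. Of all 32851 windows, 8.56% hold it and 0.624% hold it at least 2 times, as do those of *Ifih1* and *Ifi205*. These shares are per window, whereas the sensors are counted per gene, and *Ifi203* and *Mndal* have a further window each. The gamma-activated site TTCNNNGAA occurs in 0 of the 7 and in 8.30% of all windows. A match describes letters only and is no evidence of binding. In the windows printed here, each 5′ to 3′ on the minus strand that carries the gene, capitals mark the response element core on either strand.
*Ifih1*, chr2:62646206-62646505: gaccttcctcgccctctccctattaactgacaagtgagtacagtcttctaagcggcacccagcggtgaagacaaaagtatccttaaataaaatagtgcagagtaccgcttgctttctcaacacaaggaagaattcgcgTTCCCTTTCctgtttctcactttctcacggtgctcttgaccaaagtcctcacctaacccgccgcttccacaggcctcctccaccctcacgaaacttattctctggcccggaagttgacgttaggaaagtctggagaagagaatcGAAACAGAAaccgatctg
*Ddx58*, chr4:40239776-40240075: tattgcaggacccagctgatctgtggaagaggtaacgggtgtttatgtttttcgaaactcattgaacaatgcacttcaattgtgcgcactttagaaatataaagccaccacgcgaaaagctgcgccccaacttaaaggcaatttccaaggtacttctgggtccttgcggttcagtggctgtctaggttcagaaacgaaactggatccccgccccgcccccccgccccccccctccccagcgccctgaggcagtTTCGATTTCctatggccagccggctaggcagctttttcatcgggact
*Ifi205*, chr1:174031706-174032005: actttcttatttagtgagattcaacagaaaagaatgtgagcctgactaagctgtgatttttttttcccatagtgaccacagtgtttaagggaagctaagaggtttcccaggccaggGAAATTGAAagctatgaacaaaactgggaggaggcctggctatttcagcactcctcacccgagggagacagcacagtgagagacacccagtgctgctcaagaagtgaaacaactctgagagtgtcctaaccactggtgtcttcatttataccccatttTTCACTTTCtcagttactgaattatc
*Ifi203*, chr1:173942443-173942742: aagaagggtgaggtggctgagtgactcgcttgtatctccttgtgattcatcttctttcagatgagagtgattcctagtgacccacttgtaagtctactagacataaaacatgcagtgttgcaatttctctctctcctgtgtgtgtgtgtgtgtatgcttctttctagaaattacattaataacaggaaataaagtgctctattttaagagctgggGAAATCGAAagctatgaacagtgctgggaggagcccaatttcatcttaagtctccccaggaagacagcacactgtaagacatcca
*Mndal*, chr1:173880138-173880437: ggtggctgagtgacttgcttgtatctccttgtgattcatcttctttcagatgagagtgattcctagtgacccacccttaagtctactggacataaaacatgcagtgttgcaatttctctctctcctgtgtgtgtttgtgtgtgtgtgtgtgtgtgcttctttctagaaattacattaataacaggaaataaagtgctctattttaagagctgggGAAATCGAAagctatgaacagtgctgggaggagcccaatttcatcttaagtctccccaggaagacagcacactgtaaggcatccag

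In *Ifih1* the cores begin 112 bases before and 32 bases after the start, and in *Ifi205* 134 bases before and 24 bases after it. In *Ifi203* and *Mndal* the core begins 35 and 36 bases before the start, in a run of 139 identical bases that their windows share. The window of *Ifi205* shares at most 14 bases in a row with either. A further annotated start of *Ifi203* has no core, and a further start of *Mndal* has 1. These starts are those of RefSeq. The GENCODE span of *Mndal* has its 5′ end at chr1:173942491, inside the printed *Ifi203* window and outside the RefSeq windows of *Mndal*.

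The library labelled Irg1+/+ held 6408 cells and 43617546 UMIs, and the library labelled Irg1-/- held 5896 cells and 36432067 UMIs. After 124 and 102 cells with 10% or more mitochondrial UMIs were left out, 6284 and 5794 cells remained, with medians of 4528 and 4594.5 UMIs, and 36 barcodes occurred in both libraries. Cells were gated on marker genes that exclude the sensors, into monocyte-like, macrophage-like, neutrophil-like, eosinophil-like, type 1 and type 2 conventional dendritic cell-like (cDC1, cDC2), mature dendritic cell-like, plasmacytoid dendritic cell-like, T, NK and B cell-like classes and one class with monocyte and macrophage markers, called here by the cell type alone. In the Irg1+/+ and the Irg1-/- library these held 905 and 1118 monocytes, 917 and 708 macrophages, 1477 and 805 T cells, 375 and 668 NK cells, 256 and 159 cDC1, 273 and 302 cDC2, 407 and 335 mature dendritic cells, 78 and 76 plasmacytoid dendritic cells, 64 and 190 neutrophils, 53 and 116 eosinophils, and 70 and 71 B cells. The 7 monocyte markers summed to 11606 and 13124 CPM (UMIs per 1000000 UMIs of the class) in monocytes against 1883 and 2595 in macrophages. The 7 macrophage markers summed to 10723 and 11227 CPM in macrophages against 1557 and 1850 in monocytes. No gate took 12.8% and 9.44% of the kept cells.

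Levels are UMIs of a gene per 1000000 UMIs of all cells of a class (CPM), with exact 95% Poisson intervals, which cover counting error only, and differences between classes or libraries are given on the log2 scale. Because 3′ tags of different genes are captured unequally, levels are compared between cells and not between genes. RNA released from broken cells also reaches other cells. *Lyz2*, a lysozyme gene of myeloid cells, stood at 28.9% and 26.6% of its library-wide level in T cells, and *Lck*, a T cell kinase gene, at 28.6% and 25.1% of its own in cDC1. A sensor at or below such a share of its library-wide level is read as background.

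*Acod1*, the gene deleted in the Irg1-/- line, was not absent from the library labelled Irg1-/- and over all cells was not lower there. Over all kept cells it stood at 87.8 CPM (3696 UMIs) in the Irg1+/+ library and at 108 CPM (3805 UMIs) in the library labelled Irg1-/-. In monocytes the levels of *Acod1* were 175 and 153 CPM, in macrophages 93.6 and 138 CPM, and in neutrophils, where it was highest, 2120 and 1788 CPM. The tables hold 1 value per gene and no exons, so that a transcript left by the deletion cannot be told apart from an intact one. An exchange of the library labels, which would turn the sign of every ratio between the libraries, cannot be told apart from either. The library is called by its label throughout.

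*Ifih1* and *Dhx58* had their highest levels in monocytes, and *Ddx58* was as high or higher in NK cells. *Ifih1* had its highest level in monocytes in both libraries, 195 CPM (Irg1+/+) and 243 CPM (labelled Irg1-/-), and stood at 97.9 and 113 CPM in macrophages, 114 and 144 CPM in cDC2, 52.2 and 60.3 CPM in T cells and 36.1 and 43.1 CPM in NK cells. *Dhx58* was likewise highest in monocytes, at 58.4 and 80.0 CPM, with 45.6 and 53.5 CPM in macrophages and 18.2 and 17.5 CPM in T cells. *Ddx58* differed from both: in the Irg1+/+ library NK cells led with 154 CPM (134 to 177) ahead of monocytes with 113 CPM (103 to 123). In the library labelled Irg1-/- its levels in monocytes (146 CPM, 136 to 156) and NK cells (141 CPM, 126 to 158) were not separated by their intervals. T cells held *Ddx58* at 72.8 and 72.3 CPM and macrophages at 58.4 and 70.3 CPM. In cDC1, *Ddx58* stood at 14.6 and 16.4 CPM, the lowest of the 12 classes in both libraries, which is 20.6% and 17.6% of its library-wide level and below the share of *Lck* in the same cells, that is, at background. cDC2 of the same libraries held 64.7 and 89.5 CPM of *Ddx58*.

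Downstream lie the adaptor and the kinase. *Mavs* was sparse everywhere, with 801 and 670 UMIs in all kept cells, and stood at 11.4 and 14.4 CPM in monocytes, 24.0 and 22.4 CPM in macrophages, 18.4 and 19.7 CPM in T cells and 21.0 and 35.7 CPM in NK cells. *Mavs* was thus lower in monocytes than in macrophages in both libraries. Once eosinophils, with 1 and 8 UMIs, are set aside, *Tbk1* stood between 47.4 CPM in cDC1 and 123 CPM in B cells in the Irg1+/+ library. In the library labelled Irg1-/- it stood between 59.9 CPM in cDC1 and 99.8 CPM in B cells. In monocytes, macrophages and T cells, the classes with the most UMIs of *Tbk1*, its levels were 90.4, 85.9 and 79.1 CPM in the Irg1+/+ library and 81.0, 82.9 and 68.0 CPM in the other.

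*Zbp1* was highest in monocytes, at 365 and 505 CPM, and lowest in plasmacytoid dendritic cells, at 81.3 and 108 CPM, a spread of 4.49-fold and 4.68-fold. Macrophages held 153 and 240 CPM of *Zbp1*, cDC2 192 and 284 CPM, and T cells 120 and 144 CPM. Monocytes alone supplied 23.5% and 32.5% of all *Zbp1* UMIs of their library.

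The HIN-200 genes fell into 3 patterns. *Ifi204* was myeloid: monocytes held 1032 and 1181 CPM, the class with monocyte and macrophage markers 802 and 982 CPM, neutrophils 470 and 607 CPM and macrophages 410 and 522 CPM. In T cells *Ifi204* stood at 93.7 and 92.9 CPM, which is 27.5% and 19.0% of its library-wide level, no more than the share of *Lyz2* there, and so at background over all T cells. *Ifi205* was led by cDC1, with 855 CPM (821 to 890) and 1008 CPM (959 to 1058). It stood at 345 and 374 CPM in cDC2 and at 341 and 418 CPM in monocytes, and at 89.8 and 121 CPM in macrophages. In T and NK cells *Ifi205* was at background, with 36.9 and 38.3 CPM (19.9% and 16.2% of its library-wide level) in T cells and 24.0 and 28.7 CPM in NK cells. *Mndal* and *Ifi203* reached lymphocytes as well. *Mndal* was highest in B cells, at 825 and 846 CPM, followed by monocytes at 620 and 744 CPM and plasmacytoid dendritic cells at 519 and 620 CPM, and T cells held 476 and 463 CPM. *Ifi203* led in monocytes, at 603 and 688 CPM, with 518 and 436 CPM in B cells (93 and 83 UMIs) and 325 and 329 CPM in T cells. Across the 24 sums of 12 classes in 2 libraries, *Ifi203* and *Mndal* ran together (Pearson r of log2 levels 0.96), whereas *Mndal* and *Ifi204* did not (0.11). These points share 2 libraries and differ in depth, and the first pair overlaps in the annotation, so the coefficients are a description.

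**Figure D1:**
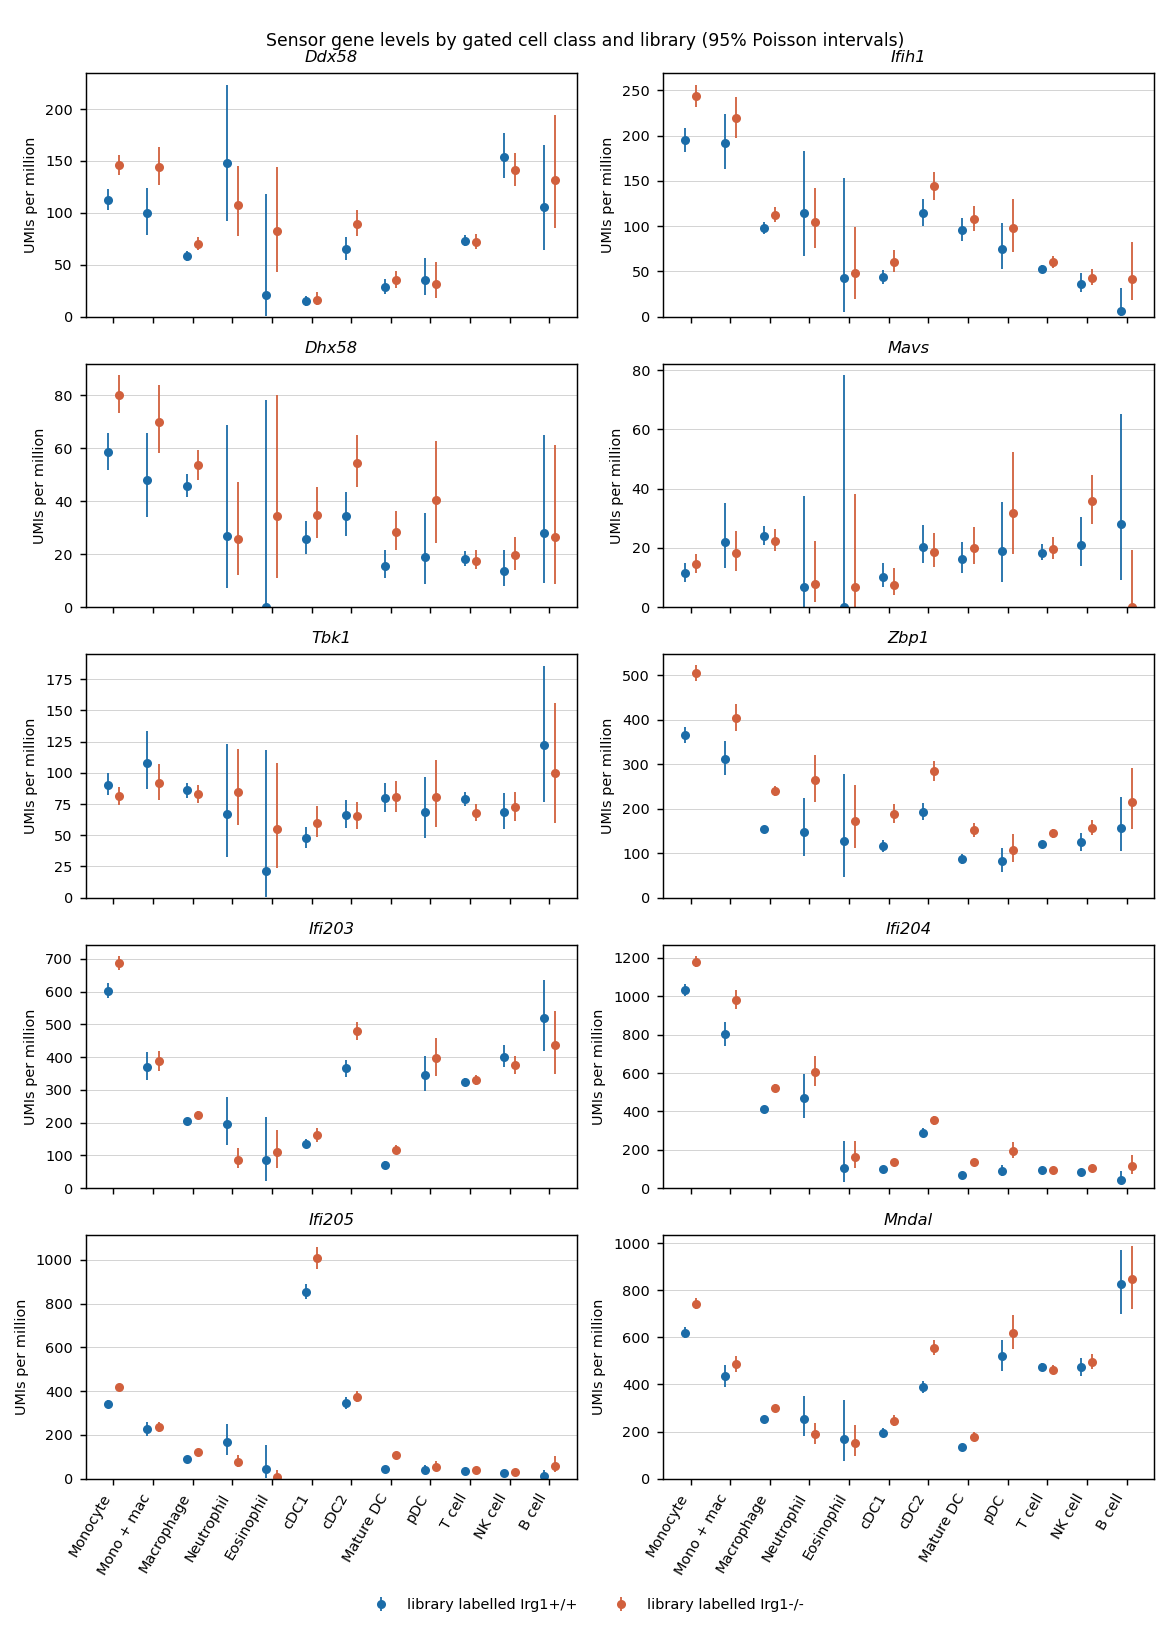
Level of each sensor gene (CPM, vertical axis from 0) in the 12 gated classes of the library labelled Irg1+/+ (blue) and the library labelled Irg1-/- (orange), with exact 95% Poisson intervals as bars. *Ifih1*, *Dhx58*, *Zbp1* and *Ifi204* peak in monocytes, *Ifi205* peaks in cDC1 and *Mndal* in B cells in both libraries, and wide bars mark classes with few UMIs.

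For each sensor the 3 genes with the most similar pattern over these 24 sums were named, out of 11274 genes with at least 100 UMIs. For *Ifi204* they were *Sirpb1c* (r 0.96), *Ifitm3* (0.93), an interferon-induced membrane gene, and *Mefv* (0.93), which encodes pyrin. For *Zbp1* they were *Oas2* (0.89), an oligoadenylate synthetase, *Ms4a4c* (0.88) and *Sirpb1c* (0.86), and for *Dhx58* *Plod3* (0.96), *Eif2ak2* (0.94), the RNA-activated kinase PKR, and *Clcn7* (0.93). For *Ifi205* they were *Plbd1* (0.91), *Tiam1* (0.90) and its neighbor *Ifi211* (0.86), with which it shares sequence. *Mndal* came first for *Ifi203*, followed by *Pnpt1* (0.85) and *Smpd2* (0.82), and *Ifi203* came first for *Mndal*, followed by *Ddx24* (0.85) and *Mycbp2* (0.84). For *Ddx58* the genes were *Tgif1* (0.84), *Sertad1* (0.83) and *Mtmr3* (0.79), and for *Ifih1* *Bmpr2* (0.88), *Gm5431* (0.88) and *Gpr35* (0.87). For *Mavs* they were *Saal1* (0.88), *Ppwd1* (0.87) and *Zdhhc7* (0.86), and for *Tbk1* *Gbp9* (0.89), *Rbsn* (0.88) and *Snx27* (0.88). Of the 30 places so named, 10 kept their gene among the first 3 by rank correlation, so most of these neighbors depend on the measure.

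Cell types were compared with edgeR's quasi-likelihood test on the summed UMIs of each class and library, with the library as a block and Benjamini-Hochberg adjustment over 11474 genes. Each class has 1 sum per library, and the block takes out the overall difference between the libraries. The p-values therefore measure how far differences between classes varied between 2 pools of 3 mice of different genotype. They do not measure the spread between mice. Myeloid cells were compared with lymphocytes first. In the mean of monocytes and macrophages against the mean of T and NK cells, 7 of the 10 genes rose and 0 fell, where 31.8% of all genes tested were higher and 33.2% were lower. The median log2 difference of the 10 was 0.92, against -0.04 for all genes. *Ifi204* differed most, by 3.17 ± 0.11 (SE, adjusted p 3.41e-23), close to *Lyz2* with 3.09 ± 0.12 (adjusted p 7.37e-22), whose reads in lymphocytes are background. *Ifi205* was higher by 2.91 ± 0.14, *Dhx58* by 2.00 ± 0.12, *Ifih1* by 1.94 ± 0.09 and *Zbp1* by 1.34 ± 0.08, each with an edgeR adjusted p of 3.67e-16 or less. Smaller differences passed for *Tbk1* (0.49 ± 0.09) and *Ifi203* (0.32 ± 0.09). *Mndal* (0.12 ± 0.08, edgeR adjusted p 0.184), *Ddx58* (0.07 ± 0.09, adjusted p 0.487) and *Mavs* (-0.18 ± 0.17, adjusted p 0.357) did not pass. On library totals without TMM scaling *Ddx58* turned to -0.19 and *Mndal* to -0.14, *Mavs* passed as lower (-0.44, edgeR adjusted p 0.0215) and the call of *Ifi203* was lost (0.06, adjusted p 0.574), as it was with DESeq2.

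Partner genes were read in the same comparison, where 31.8% of all genes tested were higher and 33.2% were lower. Of 9 adaptors, kinases and factors 6 rose, led by *Irf7* (1.68 ± 0.10), the interferon-induced transcription factor, *Nlrx1* (1.14 ± 0.18) and *Ikbke* (0.67 ± 0.12), a kinase related to TBK1. *Irf3*, the factor TBK1 phosphorylates, fell (-0.40 ± 0.11), as did *Tradd* (-0.36 ± 0.15). The other HIN-200 genes split, with 5 of 8 tested higher and 3 lower. *Ifi207* (3.53 ± 0.12) and *Ifi211* (2.68 ± 0.11) were myeloid, whereas *Ifi208* (-2.49 ± 0.35) and *Ifi214* (-1.47 ± 0.25) were lymphoid. Of 6 death partners of ZBP1, 5 rose, among them *Mlkl* (1.76 ± 0.16), the pore-forming executioner of necroptosis, and *Ripk3* (0.74 ± 0.11). Among 12 ligases and regulators, 4 rose and 5 fell, counts not far from the shares of all genes. *Trim25* (1.73 ± 0.09), a ligase for RIG-I, was among those that rose. *Rnf125*, a ligase that marks RIG-I for degradation, fell by the most (-4.04 ± 0.11). Nucleic acid clearance genes divided by enzyme: *Dnase2a* (2.10 ± 0.13), the lysosomal DNase, and *Samhd1* (1.80 ± 0.07), which breaks down nucleotides, were among 4 of 8 that rose, and the RNase H2 subunits *Rnaseh2c* (-0.72), *Rnaseh2b* (-0.60) and *Rnaseh2a* (-0.48) were the 3 that fell. All 7 reference interferon-stimulated genes (*Isg15*, *Ifit1*, *Ifit2*, *Ifit3*, *Rsad2*, *Oasl1*, *Cmpk2*) rose, *Ifit2* by the most (2.46 ± 0.20).

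Within the myeloid cells, monocytes held more sensor transcript than macrophages. In monocytes against macrophages, 8 of the 10 genes rose and 1 fell, where 21% of all genes tested were higher and 19.2% lower, and the median log2 difference of the 10 was 1.27 against -0.02 for all genes. The HIN-200 genes differed most, *Ifi205* by 2.02 ± 0.15, *Ifi203* by 1.76 ± 0.13, *Mndal* by 1.47 ± 0.11 and *Ifi204* by 1.42 ± 0.13, all with an edgeR adjusted p of 1.08e-10 or less. *Zbp1* (1.33 ± 0.11), *Ifih1* (1.22 ± 0.10), *Ddx58* (1.17 ± 0.12) and *Dhx58* (0.64 ± 0.13) followed. *Mavs* fell by 0.68 ± 0.23 (edgeR adjusted p 0.0196), a call that was lost, as was that of *Dhx58*, when cells were classed by clusters, and *Tbk1* did not pass (0.19 ± 0.11, adjusted p 0.199). Of the other HIN-200 genes, 7 of 8 rose and 0 fell, led by *Ifi209* (2.01 ± 0.14), and of the reference interferon-stimulated genes 7 of 7 rose, from *Oasl1* (0.62 ± 0.11) to *Cmpk2* (1.48 ± 0.18). Of the adaptors, kinases and factors, 4 of 9 rose, led by *Irf7* (1.16 ± 0.13), and 0 fell. Of the ligases and regulators 8 of 12 rose, *Usp18* (1.09 ± 0.16) the most, and 0 fell. Of the death partners of ZBP1, 4 of 6 rose, *Casp6* (0.88 ± 0.15) the most, and *Fadd* fell (-1.23 ± 0.27). Of the clearance genes only *Samhd1* (1.71 ± 0.10) rose and 4 of 8 fell, *Dnase2a* (-0.97 ± 0.13) the most.

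Conventional dendritic cells (the mean of cDC1, cDC2 and mature dendritic cells) held less of most sensors than the mean of monocytes and macrophages. Of the 10 genes 8 fell and 1 rose, where 24.1% of all genes tested were lower and 23.2% higher, and the median log2 difference was -0.82 against 0.00 for all genes. *Ifi204* (-2.20 ± 0.09), *Ddx58* (-1.42 ± 0.10) and *Ifi203* (-1.04 ± 0.09) fell the most, each with an edgeR adjusted p of 1.58e-12 or less. *Dhx58* (-0.92 ± 0.10), *Zbp1* (-0.85 ± 0.07), *Ifih1* (-0.79 ± 0.07), *Mndal* (-0.78 ± 0.07) and *Tbk1* (-0.38 ± 0.08) fell as well. *Ifi205* rose (0.56 ± 0.10, edgeR adjusted p 2.16e-05), which was lost with clusters in place of gates, and *Mavs* did not pass (-0.22 ± 0.18, adjusted p 0.331). Taken alone, cDC2 held more than macrophages in both libraries of *Ifih1*, *Zbp1*, *Ddx58*, *Ifi205*, *Ifi203* (366 and 479 CPM against 206 and 223 CPM) and *Mndal* (389 and 557 CPM against 255 and 299 CPM), a comparison that was not tested. All 7 reference interferon-stimulated genes fell, *Rsad2* (-1.84 ± 0.15) the most. Of the other HIN-200 genes 6 of 8 fell and 0 rose, and of the adaptors, kinases and factors 4 of 9 fell and 0 rose, with *Ikbke* (-1.74 ± 0.13) lowest. Of the death partners, 3 of 6 fell, *Mlkl* (-2.55 ± 0.17) the most, and *Casp6* rose (1.08 ± 0.10). *Dnase1l3* (1.68 ± 0.14), a secreted DNase, led the 3 of 8 clearance genes that rose, while 3 fell.

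Plasmacytoid dendritic cells, known for sensing nucleic acid in endosomes, were compared with conventional dendritic cells. Here 2 of the 10 genes rose and 2 fell, where 12.7% of all genes tested were higher and 13.8% lower, and the median log2 difference was -0.29 against -0.06 for all genes. *Mndal* rose by 0.90 ± 0.11 (edgeR adjusted p 2.89e-08) and *Ifi203* by 0.78 ± 0.14 (adjusted p 4.19e-05). *Ifi205* fell by 2.90 ± 0.26 (adjusted p 3.98e-11) and *Zbp1* by 1.04 ± 0.17 (adjusted p 1.14e-05). In plasmacytoid dendritic cells *Ifi205* was at background, at 21.4% and 23.2% of its library-wide level, where *Lyz2* stood at 29.6% and 34.9% and *Lck* at 52.8% and 48.9%. The other 6 did not pass, with SEs between 0.17 and 0.38 from 78 and 76 plasmacytoid cells. *Irf3* (0.73 ± 0.23) and *Irf7* (0.61 ± 0.18) rose and 4 other genes of the list of adaptors, kinases and factors fell, among them *Cgas* (-1.54 ± 0.32), the cytosolic DNA sensor that makes cyclic GMP-AMP, and 0 of 7 reference interferon-stimulated genes passed.

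**Figure D2:**
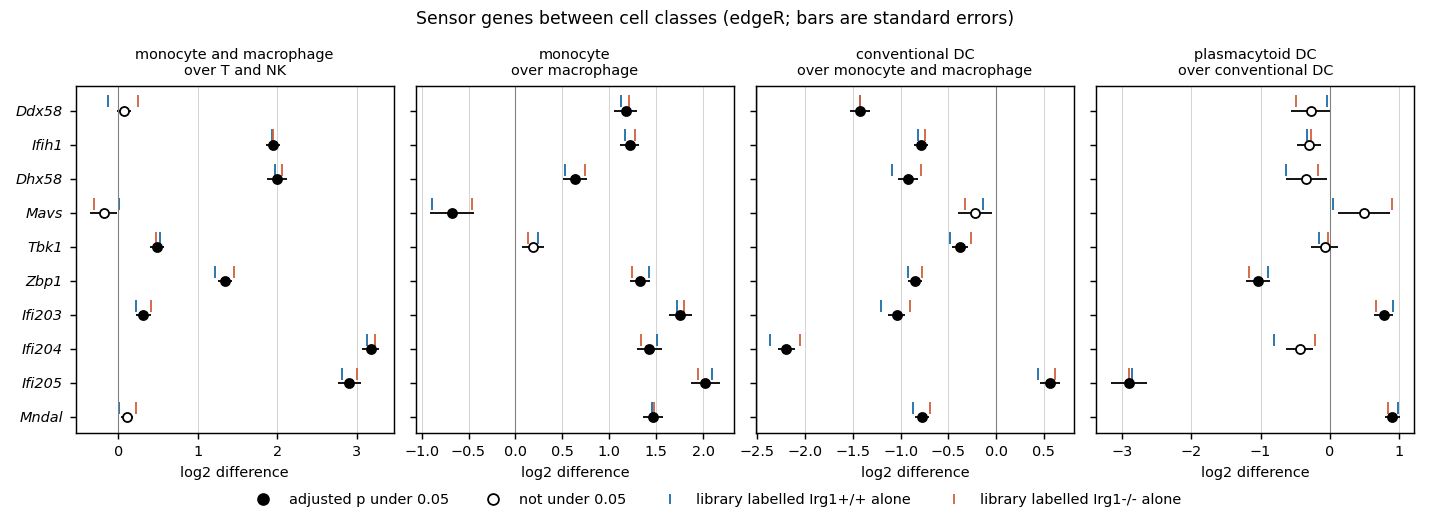
Log2 difference of each sensor gene in the 4 comparisons of cell classes (points, with edgeR standard errors as bars), filled where the Benjamini-Hochberg adjusted p was under 0.05, with ticks for each library alone. Most sensors lie to the right in monocytes over macrophages and to the left in conventional dendritic cells, *Ifi205* being the exception in the latter.

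Between the libraries, *Zbp1* was higher in the one labelled Irg1-/- by more than counting error in most classes, monocytes, macrophages and T cells among them. Because each genotype is 1 library, these are differences between 2 libraries and not tested effects of genotype. Ratios are log2 of the library labelled Irg1-/- over the Irg1+/+ library, with exact conditional 95% intervals that cover counting error only. In monocytes the median ratio of the 10 genes was 0.31, against -0.02 for all genes with at least 20 UMIs, and 0 of the 10 were higher by 1.5-fold or more, where 4.98% of all genes were. *Zbp1* (0.47, 0.38 to 0.56), *Dhx58* (0.45, 0.24 to 0.67) and *Ddx58* (0.37, 0.21 to 0.53) had the highest ratios whose intervals lay above 0, and *Tbk1* had -0.16 (-0.35 to 0.03). In macrophages the median was 0.23 against -0.04 for all genes, and 1 gene, *Zbp1* (0.64, 0.54 to 0.75), was past 1.5-fold, where 4.72% of all genes were. *Ifi205* (0.43, 0.29 to 0.57) and *Ifi204* (0.35, 0.28 to 0.42) followed, and *Mavs* (-0.10) and *Tbk1* (-0.05) had intervals that held 0. RNA of tumor cells differed too: the 5 melanoma markers, led by *Dct* with 0 of 5 at 0, summed to 148 and 38.9 CPM in monocytes and 190 and 108 CPM in macrophages, and its part in these ratios was not tested.

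In cDC1, *Zbp1* was past 1.5-fold (0.71, 0.47 to 0.94), where 6.16% of all genes were, and in cDC2 *Dhx58* was (0.65, 0.23 to 1.10), where 6.63% were. Mature dendritic cells had the highest median, 0.57 against -0.04 for all genes, with 5 of 10 genes past 1.5-fold, where 6.21% of all genes were. These were *Ifi205* (1.26), *Ifi204* (1.02, 68.0 against 138 CPM), *Dhx58* (0.85), *Zbp1* (0.82, 85.7 against 151 CPM) and *Ifi203* (0.73). By the measure of background given above, 3 of these were at or near background in mature dendritic cells of the Irg1+/+ library: *Ifi204* stood there at 19.96%, *Ifi203* at 23.9% and *Ifi205* at 24.2% of its library-wide level, where *Lyz2* stood at 22.8% and *Lck* at 26.1%. In the library labelled Irg1-/- the shares were 28.1%, 31.5% and 45.4%, where *Lyz2* stood at 26.1% and *Lck* at 29.6%, so that *Ifi204* lay between the shares of both. The part of released RNA in these 3 ratios was not tested. *Dhx58* (46.4% and 59.0%) and *Zbp1* (50.9% and 56.4%) stood above the shares of both. For *Ifi205* in mature dendritic cells, 3 cells of the library labelled Irg1-/- held 60 of its 236 UMIs. Its ratio was -0.18 when the cells with at least 2000 UMIs were thinned to 2000 and the others left out. In plasmacytoid dendritic cells *Ifi204* (1.14), *Dhx58* (1.06) and *Mavs* (0.73) were past 1.5-fold, where 8.93% of all genes were, and of these only *Ifi204*, with 42 and 92 UMIs, had an interval above 0. In plasmacytoid dendritic cells of the Irg1+/+ library *Ifi204* was at background, at 25.7% of its library-wide level against 29.6% for *Lyz2* and 52.8% for *Lck*, and in the library labelled Irg1-/- it stood at 39.8% against 34.9% and 48.9%.

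In T cells the median of the 10 was 0.01 against -0.04 for all genes and 0 genes were past 1.5-fold, where 3.1% of all genes were. In T cells *Zbp1* (0.27, 0.13 to 0.40) and *Ifih1* (0.21, 0.01 to 0.41) had intervals above 0. *Tbk1* (-0.22, -0.40 to -0.04) had one below, and *Ifi203*, *Ifi204* and *Mndal* had ratios of 0.02, -0.01 and -0.04. However, *Ifih1* turned to -0.0355 when the T cells with at least 2000 UMIs were thinned to 2000 and the others left out. In NK cells *Mavs* alone (0.75, 0.12 to 1.44, from 28 and 77 UMIs) was past 1.5-fold, where 5.72% of all genes were. Of all pairs of a gene and a class with at least 20 UMIs, 8.42% had an interval above 0. The interval lay above 0 in 9 of 12 classes for *Zbp1*, 8 of 12 for *Ifi204*, 6 of 12 for *Mndal*, 5 of 12 for *Ifi203* and 0 of 11 for *Tbk1*. The 8 classes of *Ifi204* include mature dendritic cells, plasmacytoid dendritic cells and B cells, where in the Irg1+/+ library it stood below the shares of both *Lyz2* and *Lck*. Intervals lay below 0 for *Tbk1* in T cells and for *Ifi203* and *Ifi205* in neutrophils.

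Over all kept cells the median ratio of the 10 genes was 0.37 against -0.08 for all genes, and *Zbp1* (0.68, 168 against 269 CPM) was past 1.5-fold, where 5.58% of all genes were. The libraries also differed in make-up, with 14.4% and 19.3% monocytes and 23.5% and 13.9% T cells. When the classes of the library labelled Irg1-/- were weighted as in the Irg1+/+ library, a comparison chosen after the data had been seen, the median was 0.235 and *Zbp1* was 1.41-fold higher. *Mavs* and *Tbk1* had ratios of 0.00 and -0.05 before and -0.01 and -0.08 after this weighting.

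**Figure D3:**
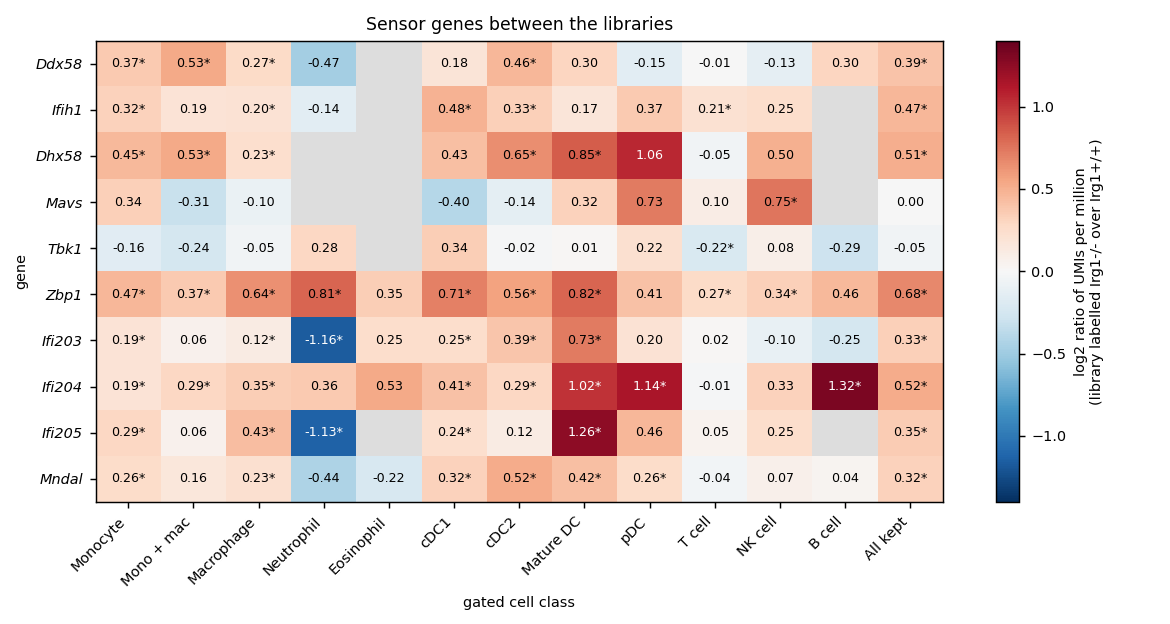
Log2 ratio of CPM, library labelled Irg1-/- over library labelled Irg1+/+, for the 10 sensor genes (vertical) in 12 gated classes and all kept cells (horizontal). Stars mark ratios whose 95% counting interval leaves out 0 and gray marks pairs with under 20 UMIs, *Zbp1* is above 0 in every class shown, and the T cell column lies near 0.

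The beta, alpha and lambda interferon genes on the list had few UMIs, and interferon gamma was not on it. *Ifnb1* (interferon beta) had 152 UMIs in the Irg1+/+ library and 39 in the library labelled Irg1-/-, of which macrophages held 89 and 16. In macrophages these *Ifnb1* UMIs came from 20 of 917 cells and 5 of 708 cells, and the 3 highest cells held 59 and 13 of them, so that the log2 ratio (-1.91, -2.82 to -1.17) rests on few cells. Alpha and lambda interferon genes on the list had at most 3 UMIs each in a library. *Irf7*, in contrast, was higher in the library labelled Irg1-/-, at 131 against 219 CPM in macrophages and 251 against 452 CPM in monocytes.

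To see how the sensors vary among cells of one class, monocytes and macrophages were divided by their UMIs of the 7 reference interferon-stimulated genes. None of these 7 is a sensor described here, and each cell was first thinned to 2000 UMIs. Cells with fewer UMIs were left out, 1486 of the kept cells in the Irg1+/+ library and 1292 in the library labelled Irg1-/-. This left 808 of 905 and 1003 of 1118 monocytes, and 682 of 917 and 586 of 708 macrophages. The ranges were 0, 1, 2 to 3, 4 to 7, and 8 or more UMIs, and they are ranges of a score and not cell types. Among monocytes, 8 of the 10 sensors were higher at every step with the libraries pooled, where 3.23% of all genes with at least 20 UMIs were, and *Mavs* and *Tbk1* were not. These counts are for the pooled libraries, and *Dhx58* in monocytes did not climb at every step in the library labelled Irg1-/- alone, nor with the second list described next in the Irg1+/+ library alone. From the lowest to the highest range, *Ifih1* went from 90.2 to 667 CPM (7.40-fold), *Ddx58* from 68.7 to 368 CPM (5.36-fold), *Ifi205* from 186 to 993 CPM (5.34-fold), *Mndal* 4.02-fold, *Dhx58* 3.76-fold, *Ifi204* from 665 to 2238 CPM, *Ifi203* 2.91-fold and *Zbp1* from 282 to 763 CPM (2.70-fold). *Tbk1* stood at 77.2 and 89.5 CPM and *Mavs* at 9.99 and 11.2 CPM in the same ranges. With ranges from a second list of 6 interferon-stimulated genes (*Ifi44*, *Ifi27l2a*, *Irf7*, *Usp18*, *Xaf1*, *Rtp4*), the same 8 were higher at every step of the pooled monocytes, where 3.02% of all genes were, with *Ifih1* 5.42-fold, *Ddx58* 4.58-fold and *Ifi205* 3.29-fold higher. No test was made over these ranges, which share 2 libraries.

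Among macrophages, 7 of the 10 were higher at every step of the pooled libraries, where 2.74% of all genes were. *Dhx58*, among these 7, was not higher at every step in the library labelled Irg1-/- alone. *Ifi205* differed the most, from 52.1 to 543 CPM (10.4-fold), then *Ifih1* (6.58-fold), *Ddx58* (5.98-fold), *Ifi204* (4.16-fold), *Ifi203* (3.55-fold), *Mndal* (3.55-fold) and *Dhx58* (3.35-fold). *Zbp1* went from 145 to 385 CPM at 4 to 7 UMIs and stood at 338 CPM in the highest range. With the second list 7 genes were again higher at every step, where 3.75% of all genes were, now with *Zbp1* and without *Ifih1*. The folds in macrophages depended on the list and the library: with the second list the pooled folds were 5.82 for *Ifi205*, 4.06 for *Ddx58* and 2.76 for *Ifih1*. In the Irg1+/+ library alone, with 13 macrophages in the highest range, they were 11.99, 7.75 and 4.55, and *Ddx58* alone of these 3 was higher at every step. In the library labelled Irg1-/-, with 30, *Ifi205* went from 58.3 to 175 CPM and the folds of *Ddx58* and *Ifih1* were 2.32 and 1.89, none of these 3 at every step. In macrophages of the library labelled Irg1-/-, *Ifi203*, *Ifi204* and *Mndal* alone among the sensors were higher at every step of the second list. *Acod1* was 3.24-fold higher in monocytes and 5.22-fold in macrophages with the first list. With the second list *Acod1* was 3.52-fold and 4.95-fold higher in the Irg1+/+ library, but 1.11-fold and 1.31-fold in the library labelled Irg1-/-, in neither class at every step. With the first list *Lyz2* went the other way, to 0.73 and 0.52 of its lowest-range level, and *Ly6c2*, a monocyte marker, was 1.83-fold and 1.76-fold higher. With the second list *Ly6c2* was 2.76-fold (Irg1+/+) and 2.83-fold (labelled Irg1-/-) higher in monocytes and 3.09-fold and 2.66-fold in macrophages. In macrophages of the library labelled Irg1-/- this was more than the folds of *Ddx58* and *Ifih1*. The highest range of the first list held 76 and 129 monocytes and 43 and 24 macrophages of the Irg1+/+ library and the library labelled Irg1-/-. Median depth per range lay between 4948 and 6021 UMIs in Irg1+/+ monocytes and between 8690.5 and 12324.5 in Irg1+/+ macrophages.

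The libraries differed in how many monocytes lay in each range. No UMI of the 7 genes was found in 37.4% of Irg1+/+ monocytes and 27.5% of those labelled Irg1-/-, and 4 or more UMIs in 147 of 808 and 285 of 1003. With the second list no UMI was found in 12.1% and 5.18% and 8 or more UMIs in 4.21% and 15.2%. The first list had 8 or more in 9.41% and 12.9%. The paper names *Irf7*, *Ifi44* and *Ifi27l2a* of the second list and *Isg15* of the first as up-regulated in Vcan+ monocytes of Irg1-/- mice. Its values come from these same libraries, so that the differing shares were in part set by the choice of genes. Among macrophages the first list found no UMI in 49.0% and 42.3% and 8 or more UMIs in 6.31% and 4.10%, so that its highest range held the smaller share in the library labelled Irg1-/-. The second list found no UMI in 27.3% and 15.02% of macrophages and 8 or more UMIs in 1.91% and 5.12%. Within ranges, *Ifi204* in monocytes stood at 641 and 690 CPM in the lowest range and at 2285 and 2212 CPM in the highest of the first list, and at 655 and 595 CPM and 2212 and 1772 CPM in those of the second. *Zbp1* in monocytes was higher in the library labelled Irg1-/- at each range, at 250 and 315, 363 and 393, 394 and 526, 519 and 651, and 602 and 854 CPM in turn, with the interval of the ratio above 0 in 4 of 5 ranges. When the ranges of the first list were weighted as in the Irg1+/+ library, also chosen after the data had been seen, the median ratio of the 10 genes in monocytes went from 0.31 to 0.09, *Zbp1* from 0.47 to 0.33 and *Ifi204* from 0.19 to 0.04. In macrophages the same weighting moved the median from 0.23 to 0.20 and *Zbp1* from 0.64 to 0.59. With the ranges of the second list the median was 0.0168 in monocytes and 0.0632 in macrophages, and *Zbp1* was 0.28 and 0.49. Because both lists hold genes already reported as higher in the library labelled Irg1-/-, such weighting can lower the ratios by construction. No conclusion is drawn from the lower values.

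T cells were divided in the same way, which left 1156 of 1477 and 586 of 805, and their values depended on the list. With the first list, whose highest range held 25 and 8 T cells, *Ifi204*, at background over all T cells, stood at 66.6 and 72.0 CPM in the lowest range and at 809 and 814 CPM in the highest, 12.2-fold and 11.3-fold higher in the Irg1+/+ library and the one labelled Irg1-/-. With the second list, whose highest range held 21 and 12 T cells, *Ifi204* was 5.30-fold higher in the Irg1+/+ library and 2.10-fold in the library labelled Irg1-/-, where it went from 62.5 to 131 CPM and not at every step. *Ifi205* in T cells was 18.6-fold and 15.9-fold higher with the first list, but with the second 6.93-fold higher in the Irg1+/+ library and at 0.82 of its lowest-range level (22.9 and 18.8 CPM) in the library labelled Irg1-/-. Some myeloid RNA in these T cells moved with the first list too. *Lyz2* was 1.46-fold and 1.45-fold higher in the highest range. *Acod1* went from 26.4 to 104 CPM (3.94-fold) and from 20.7 to 69.0 CPM (3.33-fold). *C1qa*, a macrophage gene, went from 80.9 to 75.1 CPM (0.93-fold) in the Irg1+/+ library and from 82.0 to 124 CPM (1.51-fold) in the other. The part of myeloid RNA in the values of *Ifi204* and *Ifi205* was not tested.

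**Figure D4:**
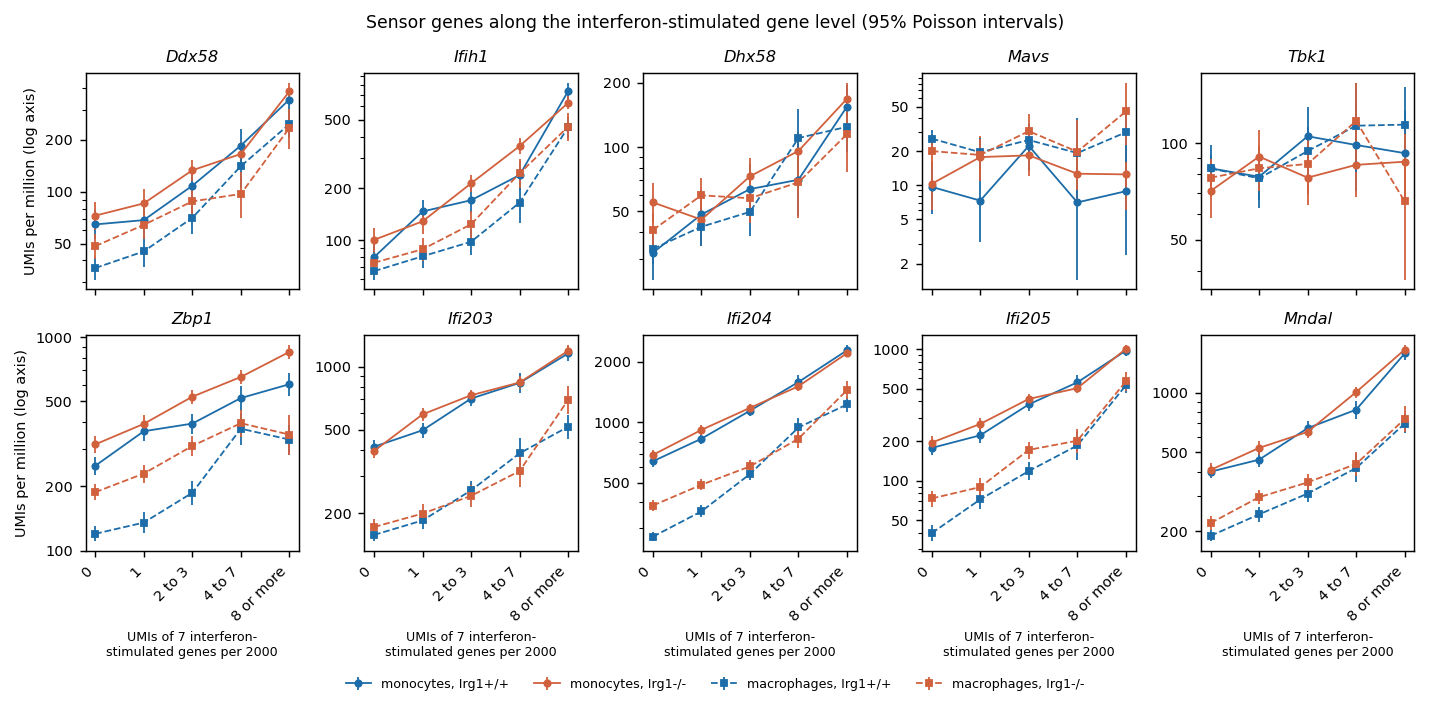
Level of each sensor gene (CPM, log axis) in 5 ranges of UMIs of the first list of 7 interferon-stimulated genes per 2000 UMIs, for monocytes (solid, circles) and macrophages (dashed, squares) of the library labelled Irg1+/+ (blue) and the library labelled Irg1-/- (orange), with exact 95% Poisson intervals. In monocytes *Mavs* and *Tbk1* stand at similar levels in the lowest and the highest range and vary in between. The other genes are higher in the highest range than in the lowest. In monocytes the orange *Zbp1* line lies above the blue one in every range.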

How the data were processed

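Single-cell RNA-seq of CD45+ tumor cells was used from 1 library per genotype. The authors deposited a table of UMI counts for each library, made with fastp, UMI-tools and STAR against the mouse genome (GRCm38 per the labels, whose processing notes also name CASAVA 1.8 and Seurat). Cells were dropped at 10% or more mitochondrial UMIs, and 0 cells had 200 or fewer genes. All deposited columns of cells were used.

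The 10 members, lists and markers were chosen with earlier results of these data known. A cell entered a class when its class markers reached a set share of UMIs (50 per 10000 for monocytes, 35 for macrophages, 15 for T cells, 10 for NK cells) with at least 2 distinct markers and 2 times the next class relative to its gate. Cells of several gates (6.52% and 7.56%) were left out, except monocytes with macrophage markers. In monocytes, 112 and 80 cells lay within 1.25 times the gate. Of gated cells, 66.1% (cDC2) to 99.3% (B cells) fell in clusters of the same name, which separate neither plasmacytoid dendritic cells nor the class with monocyte and macrophage markers. Scrublet called 0 cells, so doublets were kept.

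Named genes are the 10 members, up to 3 called genes in each direction of each list per comparison, the 3 genes most alike to each member (Pearson correlation of log2(CPM + 1)) and *Acod1*. Class sums were tested with edgeR 4.0.16 (TMM; R 4.3.3). On simulated counts for monocytes and macrophages over T and NK cells, over 10762 genes, 93.8% of 2-fold and 99.0% of 4-fold changes were called with the right sign and 0.218% of unchanged genes were called. Unlike the data, these counts had the same mean share in every class and library apart from a small set of changed genes. They therefore do not test TMM scaling where many genes differ between classes. Library ratios used a pseudocount of 0.5 UMIs. Alternatives were other scaling, DESeq2 1.42.0, no count filter, stricter gates, clusters, a 5% mitochondrial limit, Scrublet scores, thinning, per-cell means, a pseudocount of 5, a second list of 6 interferon-stimulated genes for the ranges and each library alone. Sums and intervals came from scipy 1.17.1 and pandas 2.3.3, and clusters from scanpy 1.11.5 under Python 3.11.15.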

Additional observations from a re-analysis of the deposited data

Results flagged for a closer look

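Counting intervals of *Ifi203* and *Ifi205* lay on opposite sides of 0 in neutrophils and mature dendritic cells. The log2 ratio of the library labelled Irg1-/- over the Irg1+/+ library was -1.16 for *Ifi203* and -1.13 for *Ifi205* in neutrophils, and 0.73 and 1.26 in mature dendritic cells. The difference between the classes was not tested. In the 64 neutrophils of the Irg1+/+ library, 3 cells held 24 of the 29 UMIs of *Ifi203* and 20 of the 25 UMIs of *Ifi205*. In neutrophils of the library labelled Irg1-/- *Ifi203* was at background, at 23.5% of its library-wide level against 32.9% for *Lck*. *Ifi205*, at 32.4%, stood about level with *Lck*. *Lyz2*, a gene of myeloid cells, stood at 40.5% there and is no measure of released RNA in neutrophils.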

How the results depend on the processing

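Of 350 values from the comparisons of classes, 323 kept their direction and call or, for each library alone, lay within error of the main value. Values of 1 library alone have no call and may differ in direction. *Mavs* in monocytes and macrophages over T and NK cells, at -0.18, was 0.01 in the Irg1+/+ library alone. Of 1032 values between the libraries 942 moved within their error or not at all. Those without a filter on low counts repeat the main ratios by construction and say nothing of stability. Under thinning to 2000 UMIs alone, which also leaves out the cells with fewer UMIs, 46 values moved past their error, 4 turned and 65 did neither. Among the values counted apart as main results, 1 moved under thinning and 12 did not. On library totals without TMM, 1 of the 10 genes was lower in monocytes and macrophages than in T and NK cells in place of 0, *Ddx58* there turned to -0.19 and *Mndal* to -0.14, and in plasmacytoid over conventional dendritic cells *Ddx58* turned to 0.0016 and *Tbk1* to 0.20. With DESeq2 these were -0.0143 for *Ddx58* in the former and 0.0124 for *Tbk1* in the latter comparison, and without the top 5% of Scrublet scores -0.0309 and 0.0503, and none of these values had passed. With clusters in place of gates, 0 genes were lower in monocytes than in macrophages (1 with gates) and 0 higher in conventional dendritic cells (1 with gates). Thinning to 2000 UMIs turned *Ddx58* in macrophages to -0.0813, *Ifi205* in mature dendritic cells to -0.18, *Mndal* in plasmacytoid dendritic cells to -0.0116 and *Ifih1* in T cells to -0.0355. Means of each cell's CPM gave 0.0368 for *Ifi203* and 0.0292 for *Ifi205* in neutrophils. Over all kept cells the median ratio was 0.29 with such means (0 genes past 1.5-fold), 0.26 after thinning and 0.235 at the class make-up of the Irg1+/+ library (0 genes). Chosen after the data had been seen, leaving out the 3 highest cells gave 0.36 and 0.35 for *Ifi203* and *Ifi205* in neutrophils and a neutrophil median of 0.72 against -0.29. This took 3 of 64 and 3 of 190 neutrophils, a larger share of the Irg1+/+ library, which raises the ratio by construction. The interferon-stimulated gene ranges of the Irg1+/+ library gave a monocyte median of 0.0917, and those of the second list medians of 0.0168 in monocytes and 0.0632 in macrophages. Both lists hold genes already reported as higher in the library labelled Irg1-/-, which can lower such medians by construction. The cause of these shifts was not tested. With ranges from the second list of interferon-stimulated genes, 4 of the members' folds from the lowest to the highest range moved by over 1.5 times, those of *Ifi205* in both classes and of *Ifih1* and *Mavs* in macrophages. Of 30 neighbors by pattern, 10 were kept by Spearman correlation and 5 to 11 in each library alone. No paired analysis was possible because each genotype has 1 library. Depth limits *Mavs* everywhere and every gene in neutrophils, eosinophils, B cells and plasmacytoid dendritic cells.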

Other observations

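*Trex1*, the main exonuclease of cytosolic DNA, was listed with 0 UMIs in all kept cells of both libraries. Whether its transcript was absent or was lost in counting was not tested.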
